A study of Mus musculus with 12 samples.

Results

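The cell cycle and DNA replication genes described here are 42 genes that act from the licensing of replication origins to the division of the cell. They were chosen by name, and a gene was measured where a probe set's platform annotation named that gene and no other. This held for 41 of the 42 genes, out of 18193 genes measured on the arrays; Ccnb1 was not matched. The 41 genes had 95 such probe sets, and each gene was read from its brightest one over the 12 arrays, so a value follows 1 gene across arrays and is not set against another gene.

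Bone marrow was cultured from female C57BL/6 mice aged 6 weeks, either with 17β-estradiol (17βE) at 1 nM for 1 week or without it. From the cultures c-kit+ cells, labelled as stem cells, and CD44+ cells, labelled as stromal, were profiled on Affymetrix mouse arrays, which gave log2 values made by RMA, a method that corrects background and sets all arrays to one distribution of probe signals. Each fraction had 3 control arrays and 3 estradiol arrays, which makes 4 groups. The labels number the replicates 1 to 3 and do not say whether they were separate cultures or animals, so p-values measure only the spread between these samples, and the number of arrays limits their precision.

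Cells enter the cycle when E2F transcription factors switch on the genes for DNA synthesis, and the MCM helicase, loaded by Cdc6 and Cdt1, opens the DNA for copying. Genes for mitosis come on later, in G2, when cyclins A and B with the kinase Cdk1 drive entry into mitosis, and the anaphase-promoting complex ends it. Transcript levels of both sets are widely read as a sign of how many cells in a tissue are dividing. In a bulk sample, fewer dividing cells and less RNA per dividing cell cannot be told apart.

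The cycling genes were well above background in every group. Y-linked probe sets, which have no template in female mice, read at most 3.98 (9 probe sets), and 40 of the 41 genes lay above that value on every array. The exception was Tyms, the thymidylate synthase, which read from 3.74 to 4.42 and exceeded it on 9 of the 12 arrays, so its differences are not well measured. Mki67, the Ki-67 antigen of dividing cells, read 12.69, 12.56 and 13.04 in c-kit+ control arrays, 12.87, 12.59 and 12.63 with estradiol, 12.71, 12.44 and 12.13 in CD44+ control arrays and 12.77, 12.55 and 12.59 with estradiol. All 4 groups overlapped for Mki67, and the highest and the lowest arrays were both control arrays. Pcna, the sliding clamp of DNA polymerase, read from 12.37 to 12.79 over the 12 arrays with a median of 12.62, again with overlapping groups.

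Most of the genes varied little across the experiment. The range of a gene over the 12 arrays was 0.32 to 1.42 on the log2 scale with a median of 0.69, and 34 of the 41 genes stayed within 1 log2 unit (2-fold). Ccne1, the cyclin that activates Cdk2 at the start of S phase, had the narrowest range, and Mcm4, a helicase subunit, the widest. The median SD within groups was 0.20 for these genes and 0.163 for all genes. It was 0.25 in c-kit+ control arrays, 0.169 in c-kit+ estradiol arrays, 0.212 in CD44+ control arrays and 0.118 in CD44+ estradiol arrays, against 0.161, 0.141, 0.141 and 0.111 for all genes.

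**Figure D1:**
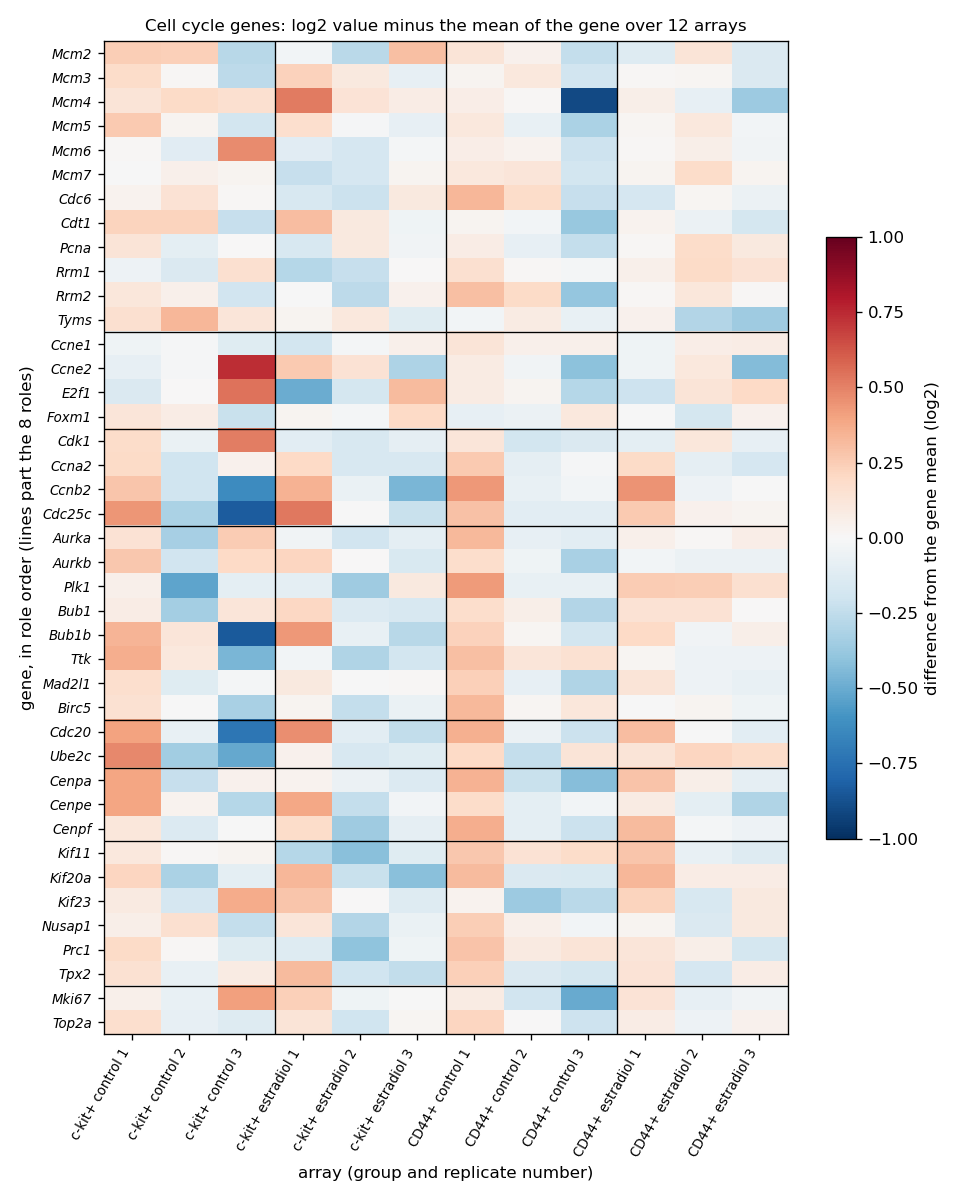
Each row is 1 of the 41 genes and each column 1 of the 12 arrays; colour gives the log2 value minus the mean of that gene over the 12 arrays, and black lines part the 8 roles and the 4 groups. The first column of each group is mostly red in the lower rows, which hold the genes of G2 and mitosis, and c-kit+ control replicate 3 holds several of the darkest cells.

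Control replicate 3 of each fraction stood apart in these genes. In c-kit+ control replicate 3, Bub1b, a kinase-like protein of the spindle checkpoint, read 9.39 against 10.57 and 10.35 in replicates 1 and 2. Cdc25c, the phosphatase that activates Cdk1, read 6.53 there against 7.81 and 7.05. Ccne2, a second cyclin E, read 9.93 there against 9.11 and 9.19. The array thus held the lowest Bub1b and Cdc25c and the highest Ccne2, Mki67, Cdk1 and E2f1 of all 12 arrays. It was the lowest of the 12 arrays for 10 genes and the highest for 6. CD44+ control replicate 3 was the lowest for 12 genes and the highest for none: Mcm4, Mcm5, Mcm6, Cdc6, Cdt1, Pcna, Rrm2, Aurkb, Mad2l1, Cenpa, Mki67 and Top2a. There 2 of 41 genes lay above their group mean, Mcm4 read 10.28 against 11.25 and 11.20, and the SD of all gene values was 2.50, the lowest of the arrays. CD44+ control replicate 1 was the highest array for another 12 genes.

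The labelled cell types were read from marker genes. Kit, the receptor that defines c-kit+ cells, read 3.79 to 4.22, lay above the highest Y-linked value on 4 of the 12 arrays and differed by -0.04 between the fractions in control cultures (limma, SE 0.12, adjusted p = 0.938). Cd44 was well above background in both fractions, with means of 11.93 and 12.12 in c-kit+ and CD44+ control arrays. All 8 macrophage genes lay above the highest Y-linked value on every array: Csf1r, the receptor of macrophage colony-stimulating factor, read 13.86 to 14.11, and Itgam read 6.24 to 8.07. Of these 8, Mrc1 and Fcgr1 passed as higher in c-kit+ than in CD44+ cells in control cultures (means of 11.71 against 11.06 and 10.74 against 10.03), and Mrc1 also in estradiol cultures. Of 7 stem and progenitor genes Hoxa9 passed as lower in c-kit+ cells in both cultures (6.03 against 8.23 in control arrays) and Cd34 in estradiol cultures, and Ebf1, of 4 B cell genes, was lower in both. Of 8 mesenchymal genes, 5 were lower in c-kit+ than in CD44+ cells in control cultures and 6 in estradiol cultures, and their mean log2 value was 5.36 to 5.85 in c-kit+ control arrays and 6.86 to 7.96 in CD44+ control arrays.

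None of the 41 genes passed the test for an estradiol effect in c-kit+ cells, where a gene passed at an adjusted p under 0.05 (limma, Benjamini-Hochberg over 18193 genes). Over all genes 0.181% passed, 32 higher and 1 lower, and at an unadjusted p under 0.05 there were 2 of the 41 genes against 4.47% of all genes. The median difference of the cycling genes, estradiol minus control, was -0.05 (28 below 0 and 13 above), and that of all genes was 0.02. Single arrays moved this median: it was 0.02 without c-kit+ control replicate 1, 0.0071 without estradiol replicate 2 and -0.11 without control replicate 2. The differences ran from -0.33 to 0.34. Every 95% interval lay within 2-fold in either direction, and 34 of 41 lay within 1.5-fold.

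Genes of DNA synthesis gave small values in the c-kit+ comparison. In the replication role 9 of 12 genes were below 0 and the median was -0.07. Mcm6, a helicase subunit, had the largest difference of the role: it read 11.15, 11.02 and 11.61 in control arrays and 11.02, 10.97 and 11.12 in estradiol arrays, a difference of -0.22 (SE 0.14, adjusted p = 0.999). These arrays overlapped, and control replicate 3 was the highest of them. E2f1, a transcription factor of S phase entry, led the G1/S role with a difference of -0.25 (SE 0.21, adjusted p = 0.999). Without control replicate 3 both differences were -0.049; leaving out each array in turn moved Mcm6 as far as -0.34 (control replicate 2) and E2f1 as far as -0.47 (estradiol replicate 3).

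The 2 genes with an unadjusted p under 0.05 in c-kit+ cells were Cdk1 and Kif11. Cdk1, the kinase that drives cells into mitosis, read 10.63, 10.37 and 10.95 in control arrays and 10.34, 10.29 and 10.35 in estradiol arrays, a difference of -0.33 (SE 0.14, 95% interval -0.63 to -0.03, adjusted p = 0.999). Kif11, the motor that pushes spindle poles apart, read 8.44, 8.35 and 8.37 against 8.05, 7.92 and 8.21, a difference of -0.32 (SE 0.12, 95% interval -0.58 to -0.07, adjusted p = 0.859). For both genes each estradiol array lay below each control array. Control replicate 3 was the highest Cdk1 array, and without it the difference of Cdk1 was -0.18 (adjusted p = 0.917) and that of Kif11 -0.33 (adjusted p = 0.666). With the mean of its 3 probe sets in place of the brightest, Kif11 differed by -0.08 (adjusted p = 0.999). Tyms was the only other gene of the 41 without overlap, and 3 of 41 is near the 7.81% of all genes without overlap in either direction.

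Other genes of mitosis had wider intervals in c-kit+ cells. Cdc25c had the highest difference, 0.34 (SE 0.27, 95% interval -0.24 to 0.91), with control arrays from 6.53 to 7.81 and estradiol arrays from 7.14 to 7.89. Leaving out control replicate 3 brought it to 0.037 and estradiol replicate 1 to 0.12, while leaving out control replicate 1 brought it to 0.67. Cdc20, which activates the anaphase-promoting complex, differed by 0.17 (SE 0.26), Ttk, a checkpoint kinase, by -0.18 (SE 0.17), and Cenpa, the histone H3 variant of centromeres, by -0.12 (SE 0.19). Mki67 differed by -0.06 (SE 0.16). The sign of Cenpa turned without control replicate 1 (0.042) and that of Mki67 without control replicate 3 (0.076). The adjusted p of each of these 5 genes was 0.999. All 6 genes of the spindle and cytokinesis were below 0, with a median of -0.08.

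In CD44+ cells, too, none of the 41 genes passed for estradiol, against 0.291% of all genes (51 higher and 2 lower). None of the 41 had an unadjusted p under 0.05, against 5.38% of all genes. That count was 5 after quantile normalization, 6 with array weights and 0 with the replicate number as a block. With the replicate number as a block, which pairs these arrays, 101 of all genes passed and again none of the 41. The differences ran from -0.22 to 0.26. Their median was 0.04 (27 above 0 and 14 below), with 0.01 for all genes, and it turned to -0.11 after quantile normalization of the deposited values, -0.057 without control replicate 3 and -0.0025 without estradiol replicate 1. All 41 intervals lay within 2-fold and 34 within 1.5-fold.

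The largest CD44+ difference was that of Kif23, a motor of the midbody that cells need to separate. It read 9.94, 9.54 and 9.63 in control arrays and 10.13, 9.74 and 10.00 in estradiol arrays, a difference of 0.26 (SE 0.16, 95% interval -0.10 to 0.61, adjusted p = 0.949). The groups overlapped, since control replicate 1 exceeded estradiol replicate 2. Ttk read 7.65, 7.47 and 7.50 against 7.36, 7.30 and 7.30, a difference of -0.22 (SE 0.17, adjusted p = 0.949). Ttk was the 1 gene of 41 without overlap, against 12.7% of all genes in either direction. In the other roles the largest differences were -0.20 for Tyms, 0.10 for E2f1, 0.08 for Cdc25c, 0.14 for Ube2c, the ubiquitin-conjugating enzyme of the anaphase-promoting complex, 0.19 for Cenpa and 0.21 for Mki67, none past the threshold (adjusted p from 0.949 to 0.978). Without control replicate 3 Cenpa was at 0.023, Mki67 at 0.063 and E2f1 at -0.014, and without control replicate 1 Cenpa was at 0.41 and Mki67 at 0.36.

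**Figure D2:**
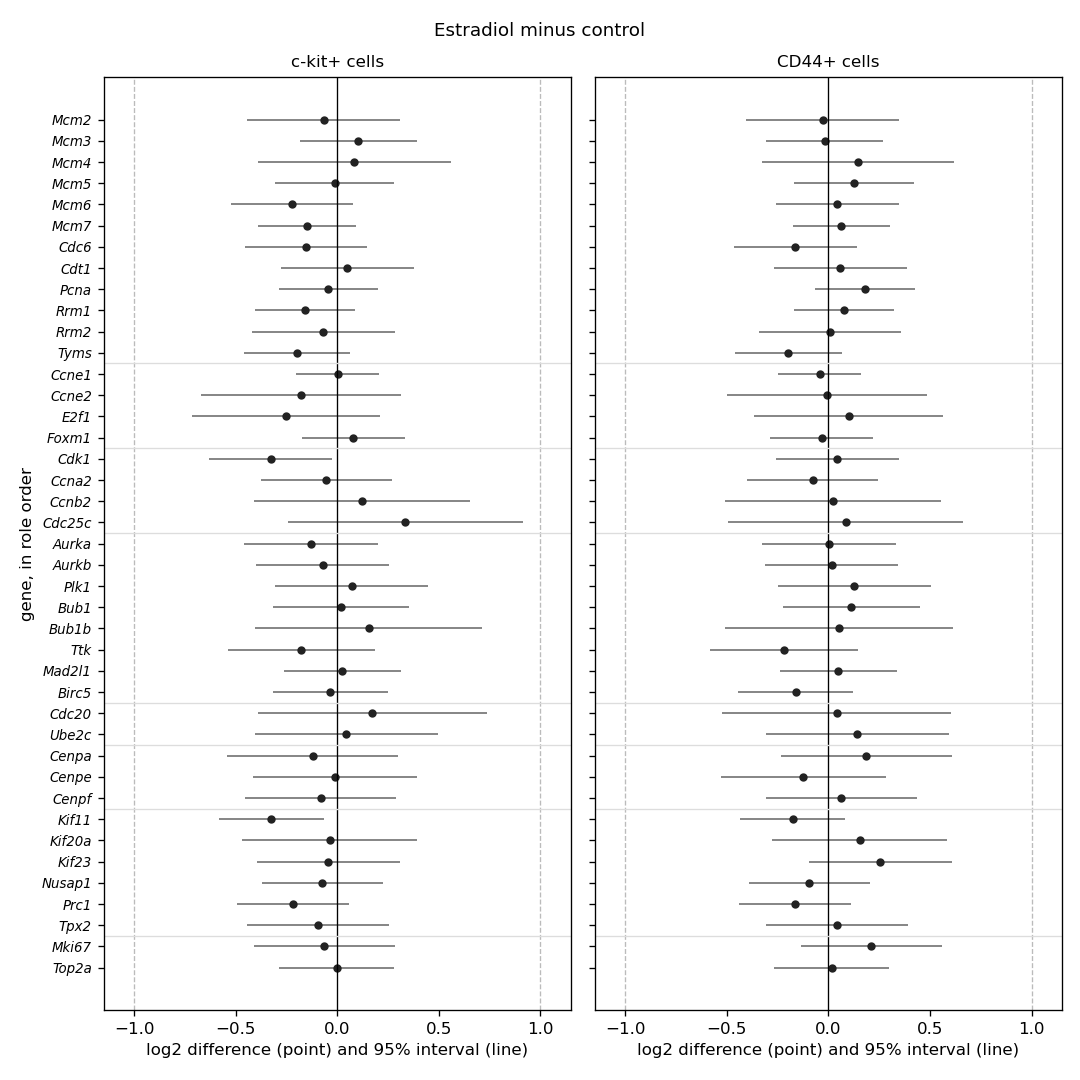
Points are log2 differences, estradiol minus control, of 41 genes in c-kit+ cells (left) and CD44+ cells (right), with 3 arrays in each group; lines are 95% intervals of the limma fit, and dashed lines mark 2-fold. All intervals end inside the dashed lines, and in c-kit+ cells those of Cdk1 and Kif11 do not cross 0.

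The effects of estradiol in the 2 fractions were compared directly. None of the 41 genes passed for the difference of effects, c-kit+ minus CD44+, and neither did any gene of the arrays (0.0%); at an unadjusted p under 0.05 there were 0 of the 41 and 296 (1.63%) of all genes. Cdk1 had the largest difference of effects, -0.37 (SE 0.20, 95% interval -0.80 to 0.06, adjusted p = 1.0). That of Mki67 was -0.28 (SE 0.23, 95% interval -0.77 to 0.21). Without c-kit+ control replicate 3 they were -0.22 and -0.14. The other roles were led by E2f1 (-0.35), Cenpa (-0.31), Kif23 (-0.30), Mcm6 (-0.27), Aurka, a centrosome kinase (-0.13), and Cdc20 (0.13), each with an adjusted p of 1.0. The intervals were wider here: 39 of 41 lay within 2-fold and 22 within 1.5-fold, and those of E2f1 and Cdc25c reached past 2-fold. The median difference of effects was -0.06, and it turned to 0.05 after quantile normalization and to 0.04 without CD44+ control replicate 3.

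The fractions were next compared in control cultures. Of all genes 2.3% passed (98 higher in c-kit+ cells and 320 lower), and none of the 41 cycling genes did. At an unadjusted p under 0.05 there were 0 of the 41 genes against 13.6% of all genes. This count of 0 held with the trend and robust moderation and with only the compared arrays. It was 5 after median centring, 4 after quantile normalization and 4 with the replicate number as a block. The median difference, c-kit+ minus CD44+, was -0.02 with 18 genes above 0, and it was -0.13 after quantile normalization, 0.08 after median centring -0.09 without CD44+ control replicate 3 and 0.09 without CD44+ control replicate 1, so that it had no settled sign. All 41 intervals lay within 2-fold and 29 within 1.5-fold. The fractions also differed in the 3' minus 5' difference of control probes, which widens as RNA is shortened. For Gapdh its mean was 5.07 in c-kit+ and 3.64 in CD44+ control arrays, and 4.99 and 3.71 in estradiol arrays. For Actb the means were 3.33 and 1.87, and 3.20 and 1.86. The part of this measure in the differences between the fractions was not tested.

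Mcm4 had the largest difference between the fractions. It read 11.31, 11.38 and 11.35 in c-kit+ control arrays and 11.25, 11.20 and 10.28 in CD44+ control arrays, a difference of 0.44 (SE 0.22, 95% interval -0.04 to 0.91, adjusted p = 0.411). All c-kit+ arrays were higher, and without the low CD44+ replicate 3 the difference was 0.12 (adjusted p = 0.974). It was 0.24 with the mean of its probe sets (adjusted p = 0.547) and 0.18 with array weights (adjusted p = 0.536). Without CD44+ control replicate 1 it was 0.61 (adjusted p = 0.193). In estradiol cultures Mcm4 read 11.71, 11.32 and 11.26 against 11.24, 11.10 and 10.82, a difference of 0.38 (SE 0.22, adjusted p = 0.689), again with no overlap.

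Of the other genes, Mki67 differed by 0.34 in control cultures (SE 0.16, 95% interval -0.01 to 0.68, adjusted p = 0.384) and by 0.06 in estradiol cultures (SE 0.16, adjusted p = 0.974). Without c-kit+ control replicate 3 the control difference of Mki67 was 0.19, and without CD44+ control replicate 3 it was also 0.19 (adjusted p = 0.65 and 0.939). Plk1, a kinase that matures centrosomes, read 9.29, 8.70 and 9.14 in c-kit+ control arrays and 9.66, 9.16 and 9.16 in CD44+ control arrays, a difference of -0.28 (SE 0.17, adjusted p = 0.524). Its groups overlapped in control cultures; in estradiol cultures the c-kit+ arrays at 9.14, 8.88 and 9.33 all lay below the CD44+ arrays at 9.49, 9.48 and 9.39 (-0.34, SE 0.17, adjusted p = 0.597). The remaining roles were led in control cultures by Ccne2 (0.33), Ccnb2 (-0.29), Kif23 (0.30), Cenpa (0.17) and Cdc20 (-0.16), with adjusted p-values from 0.465 to 0.863.

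In estradiol cultures 2.65% of all genes passed between the fractions, 59 higher and 424 lower in c-kit+ cells, and again none of the 41. At an unadjusted p under 0.05 there were 2 of the 41, against 9.77% of all genes. They were Rrm1, the large subunit of ribonucleotide reductase (-0.30, SE 0.11, adjusted p = 0.329), and Kif11 (-0.30, SE 0.12, adjusted p = 0.379). With the replicate number as a block 5 of the 41 had an unadjusted p under 0.05. After quantile normalization there were 4, and after median centring 1. The other roles were led by Mcm4 and Plk1, given above, and by Ube2c (-0.26), Ccnb2 (-0.19), Cenpf (-0.17), Ccne2 (0.16) and Mki67, with adjusted p-values from 0.829 to 0.974 for the last 5. Rrm1 read 10.47, 10.53 and 10.76 in c-kit+ arrays and 10.80, 10.95 and 10.90 in CD44+ arrays. The median was -0.08, with 30 genes below 0 and 11 above, and it was 0.0022 without c-kit+ estradiol replicate 2. The groups did not overlap for 6 of 41 genes here and for 4 of 41 in control cultures, against 18.2% and 15.7% of all genes, and Mcm4 was in both sets.

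**Figure D3:**
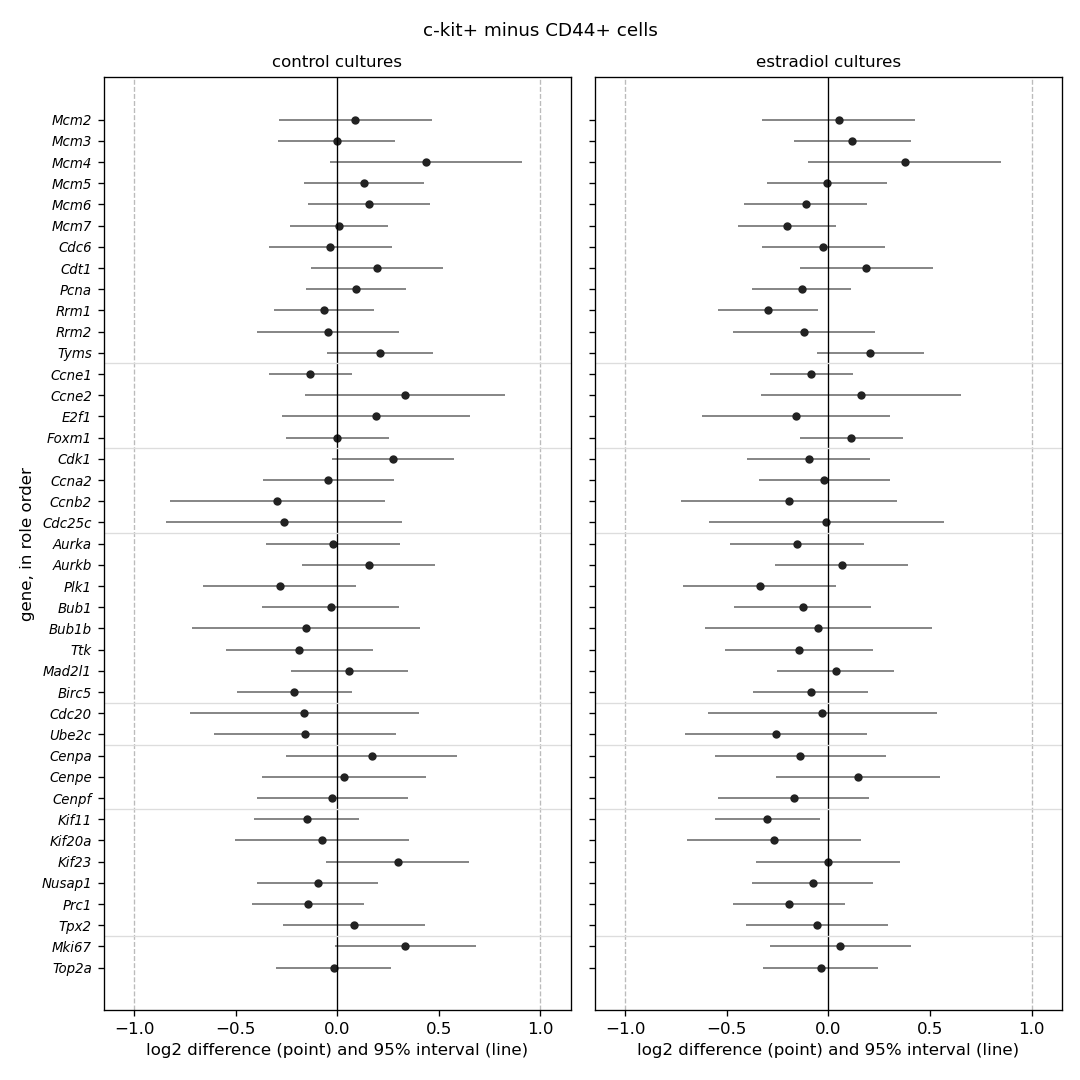
Points are log2 differences, c-kit+ minus CD44+, of 41 genes in control cultures (left) and estradiol cultures (right), with 3 arrays in each group; lines are 95% intervals of the limma fit, and dashed lines mark 2-fold. Points lie between -0.34 and 0.44 and every interval ends inside the dashed lines.

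The values of some of these genes differed by the replicate number of the labels. With the 4 group means taken out, a moderated F over the 3 numbers called 0.742% of all genes (135) and 2 of the 41 cycling genes, Ccnb2 and Cdc20. At an unadjusted p under 0.05 there were 17 of 41 genes, against 15.2% of all genes. The arrays numbered 1 had the highest mean in 31 of 41 genes, against 35.9% of all genes. The median difference between arrays numbered 1 and the mean of those numbered 2 and 3 was 0.21 for the 41 genes, -0.005 for all genes and 0.08 for the 7771 genes at least as bright as the dimmest of the 41 other than Tyms.

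Ccnb2, a cyclin of mitotic entry, read 10.14, 10.21, 10.29 and 10.31 on the arrays numbered 1, given as the control and estradiol arrays of c-kit+ cells and then those of CD44+ cells. On the arrays numbered 2 it read 9.66, 9.79, 9.78 and 9.81, and on those numbered 3 it read 9.23, 9.40, 9.83 and 9.85. Every array numbered 1 was thus above every other array. The arrays numbered 1 were 0.57 above the mean of the others (1.48-fold, adjusted p = 0.038 for the F over the 3 numbers).

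Cdc20 read 11.99, 12.06, 11.95 and 11.90 on the arrays numbered 1, in the same order of groups. It read 11.52, 11.49, 11.54 and 11.59 on those numbered 2, and 10.87, 11.35, 11.38 and 11.49 on those numbered 3. The arrays numbered 1 again lay above all others, by 0.57 on average (1.49-fold, adjusted p = 0.0435). Its 2 further probe sets, which were not used for the gene, also had their highest mean on arrays numbered 1, with differences of 0.49 and 0.68. When every probe set of 1 gene was fitted, these had adjusted p-values of 0.075 and 0.017 in the moderated F. In that fit the probe sets used for Cdc20 and Ccnb2 did not pass (adjusted p = 0.070 and 0.066). Over all members 54 probe sets were not used, and 41 of these lay above the highest Y-linked value on every array. Arrays numbered 1 had the highest mean in 26 of these 41 probe sets, with a median difference of 0.12.

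Next in order came Kif20a, a motor of cytokinesis (0.45, adjusted p = 0.0722), and Cdc25c (0.57, adjusted p = 0.0975), neither past the threshold. A further Cdc25c probe set, nearly as bright, was 0.23 higher on arrays numbered 1. The calls of Ccnb2 and Cdc20 were both lost without any 1 of the 6 estradiol arrays or without c-kit+ control replicate 1. Both were also lost without CD44+ control replicate 1 or 2, and Cdc20 alone without CD44+ control replicate 3. Without c-kit+ control replicate 3 the calls were 6 of 41: Ccne2, Ccna2, Ccnb2, Cdc25c, Cdc20 and Kif20a, where 2.13% of all genes passed. After quantile normalization no gene of the 41 passed, and Ccnb2 and Cdc20 were 0.48 and 0.51 higher on arrays numbered 1. Within the 6 c-kit+ arrays alone none of the 41 passed (0.0055% of all genes), nor within the 6 CD44+ arrays (0.731%); Ccnb2 was 0.65 and 0.48 higher on arrays numbered 1 there, and Cdc20 0.72 and 0.42.

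**Figure D4:**
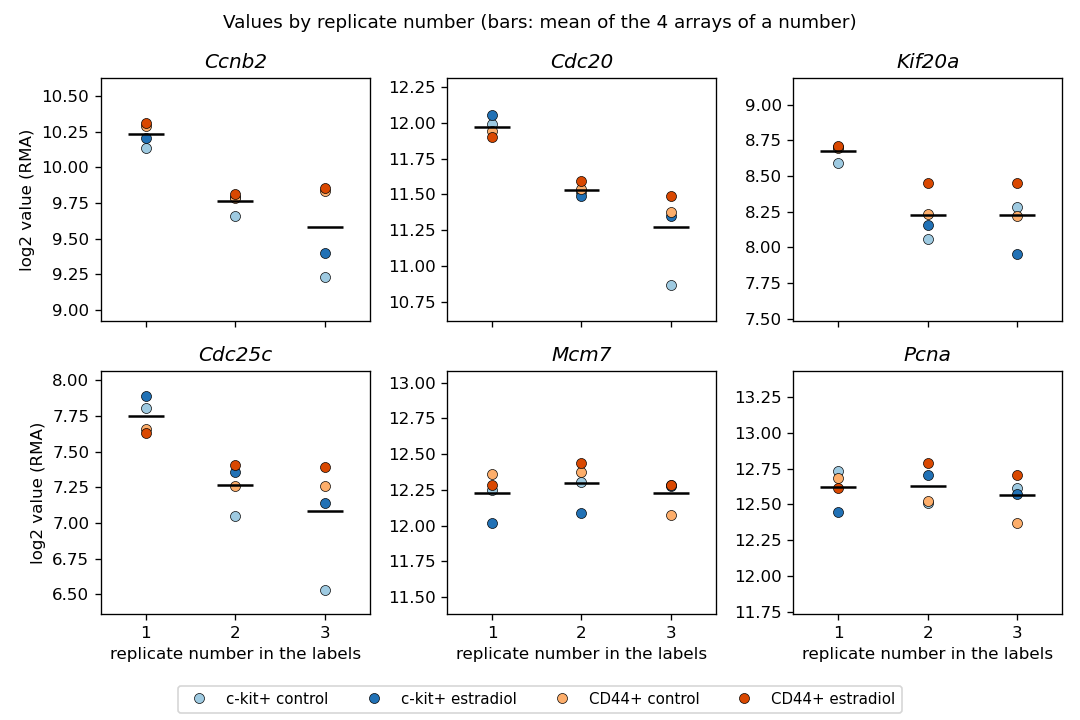
Log2 values of 6 genes by replicate number, 1 point for each of the 12 arrays coloured by group, with bars at the mean of the 4 arrays of a number; each panel has its own value range. For Ccnb2 and Cdc20, which passed, all 4 arrays numbered 1 lie above the other 8. Kif20a and Cdc25c did not pass, and Mcm7 and Pcna, picked for display, show no such step. Mcm4, Cdt1 and Mcm5 of the same role, not shown, were 0.29, 0.22 and 0.21 higher on arrays numbered 1.

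The count of genes highest on arrays numbered 1 was then taken by role. In 14 of 41 genes the array numbered 1 was the highest of its group in all 4 groups, against 5.23% of all genes and 9.74% of the 7771 bright genes. All 14 belonged to the 25 genes of G2 and mitosis: Ccna2, Ccnb2, Cdc25c, Aurkb, Bub1b, Ttk, Mad2l1, Cdc20, Cenpa, Cenpe, Cenpf, Kif20a, Tpx2 and Top2a. Of the 16 genes of G1/S and replication, none was among them, although Mcm4 was when the mean of its probe sets was taken. The transcription factor Foxm1 was placed in this set of 16 by the choice of roles. The count was 10 of 41 after quantile normalization, all among the 25, against 3.18% of all genes and 3.89% of the bright ones. It was 12 with the mean of probe sets, 11 of them among the 25, against 4.29% and 7.9%. Among probe sets not used, the difference on arrays numbered 1 was 0.11 for Ccna2, -0.06 for a dimmer one of Top2a and 0.45 for Cenpe. The difference between the sets of 25 and 16 genes was not tested. Outside the 41, replication genes such as Orc6, Pold1 and Rfc4 were also highest on number 1 in all 4 groups.

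By role, the arrays numbered 1 were highest in the mean for 8 of 8 mitotic kinase and checkpoint genes, 6 of 6 spindle genes and 3 of 3 centromere genes. Of the 4 measured genes around Cdk1 this held for 3, with a median difference of 0.44; Cdk1 itself was the fourth, at 0.04. The centromere genes had a median of 0.39: Cenpa 0.40, Cenpe, a kinetochore motor, 0.39, and Cenpf, a kinetochore protein of G2, 0.36. In the replication role 6 of 12 genes had their highest mean on arrays numbered 1, and the median was 0.08. Mcm4 was at 0.29, Cdt1 at 0.22, Mcm5 at 0.21, Mcm3 at 0.17, Rrm2 at 0.16 and Pcna at 0.02. Below 0 in this role were Mcm6, Mcm7 and Rrm1, at -0.0093, -0.04 and -0.05. A further Mcm6 probe set, nearly as bright as the one used, was at 0.24. At an unadjusted p under 0.05 in the F over the numbers there were 4 of the 12, against 15.2% of all genes. In the G1/S role E2f1 was at -0.29, the lowest of the 41 genes. The median of the 25 genes was 0.24 as deposited and 0.17 after quantile normalization, while that of the 16 genes was 0.05 and turned to -0.001.

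**Figure D5:**
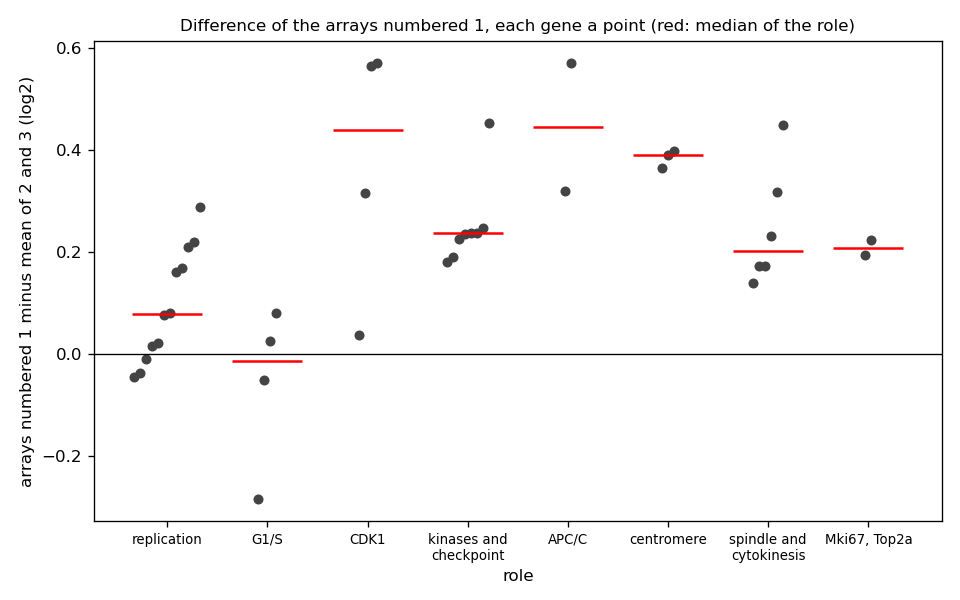
Each point is 1 of the 41 genes, placed by the log2 difference between the mean of the 4 arrays numbered 1 and the mean of the 8 arrays numbered 2 and 3; red bars are the median of each role. The 6 roles on the right lie above 0, with medians of 0.20 to 0.45. On the left the replication role lies mostly above 0 (median 0.08), and the G1/S role spreads around 0.

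Other measures of the arrays are given beside this result. The SD of all gene values on an array was 2.68 to 2.70 on arrays numbered 1, 2.61 to 2.68 on those numbered 2 and 2.50 to 2.68 on those numbered 3. The 3' minus 5' difference of the Gapdh control probes widens as RNA is shortened. This difference was 4.14 to 6.17, 3.32 to 5.23 and 2.83 to 4.62 on arrays numbered 1, 2 and 3. Within each of the 4 groups, the array numbered 1 had the highest Gapdh difference and the highest SD. In c-kit+ estradiol arrays the SD of numbers 1 and 2 was nearly equal (2.6842 and 2.6839). The Actb difference was also highest on number 1, except in c-kit+ control arrays, where number 2 was highest. The mean of 8 macrophage genes was 11.95 to 12.10, 11.96 to 12.16 and 11.79 to 12.40, and that of 8 mesenchymal genes 5.36 to 8.22, 5.28 to 7.21 and 5.78 to 7.96, so that the ranges overlapped; by number 0 of 8 macrophage, 1 of 8 mesenchymal and 1 of 7 stem and progenitor genes passed. The part of these measures in the values of the cycling genes was not tested, and the labels do not say what a replicate number stands for.

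Since Ccnb2 and Cdc20 both passed by replicate number, the DNA before their start sites is shown with that of Mcm5 and Mcm6, replication genes picked because their windows hold E2F words, so that the contrast between the pairs is one of choice. The sequences are from RefSeq (GRCm38.p6), from 180 bases to 1 base before the start, read 5′ to 3′ on the strand of the gene. Capitals mark 3 kinds of motif on either strand: the CHR element (TTTGAA or TTCGAA), found at many genes of G2 and mitosis, the CCAAT box (CCAAT), which binds NF-Y, and E2F words (TTTGGCGC, TTTCCCGC or TTTCGCGC).
Ccnb2 (chr9:70421555-70421734, minus strand): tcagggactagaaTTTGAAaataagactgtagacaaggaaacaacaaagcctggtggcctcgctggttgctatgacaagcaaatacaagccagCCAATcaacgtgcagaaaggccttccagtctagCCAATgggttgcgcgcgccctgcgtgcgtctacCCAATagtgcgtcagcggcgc
Cdc20 (chr4:118437344-118437523, minus strand): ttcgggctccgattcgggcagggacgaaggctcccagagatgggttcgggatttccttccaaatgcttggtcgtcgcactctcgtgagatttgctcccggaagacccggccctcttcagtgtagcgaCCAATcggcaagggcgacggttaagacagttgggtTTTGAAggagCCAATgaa
Mcm5 (chr8:75109329-75109508, plus strand): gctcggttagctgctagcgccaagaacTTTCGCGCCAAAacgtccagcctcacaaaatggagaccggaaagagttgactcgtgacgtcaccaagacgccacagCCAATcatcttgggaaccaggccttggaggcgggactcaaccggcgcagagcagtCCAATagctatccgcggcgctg
Mcm6 (chr1:128359706-128359885, minus strand): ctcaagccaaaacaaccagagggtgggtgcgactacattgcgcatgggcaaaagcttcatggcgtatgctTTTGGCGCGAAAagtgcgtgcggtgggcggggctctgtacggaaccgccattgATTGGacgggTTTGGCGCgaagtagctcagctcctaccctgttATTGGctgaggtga

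In these 4 windows Ccnb2 and Cdc20 hold CHR words and CCAAT boxes and no E2F word, while Mcm5 and Mcm6 hold E2F words and CCAAT boxes and no CHR word; overlapping E2F words on both strands run together in capitals. Windows of 250 bases before the start were found for 34 of the 42 genes and for 27025 genes in all. A CHR word stood in 9 of 21 windows of G2 and mitosis genes (42.9%), in 2 of 13 of G1/S and replication genes (15.4%; Mcm2 and Mcm7) and in 19.6% of all genes. The CCAAT box stood in 85.7%, 61.5% and 37.5%, and E2F words in 4.76%, 30.8% and 1.78%. Both CHR word and CCAAT box stood in 42.9%, 15.4% and 7.0%. Mcm5 was itself 0.21 higher on arrays numbered 1 (adjusted p = 0.24) while Mcm6 differed by -0.0093. This contrast depended on the probe set. A further Mcm6 probe set, nearly as bright, was at 0.24, and dimmer ones of Mcm5 were at -0.13 and 0.11. A match is a description of letters, and the windows hold no measurement of binding.

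Another 93 genes of the same pathways were measured. None passed for estradiol in either fraction, with 3 and 6 at an unadjusted p under 0.05 in c-kit+ and CD44+ cells, and their median differences were -0.03 and 0.02. The largest estradiol differences were those of Btg2, an antiproliferative gene, in c-kit+ cells (0.44, adjusted p = 0.999) and Ccng2, a cyclin linked to cell cycle arrest, in CD44+ cells (0.74, adjusted p = 0.16). Second to these came Btg1 in c-kit+ cells (0.41, adjusted p = 0.921) and Btg2 in CD44+ cells (0.53, adjusted p = 0.809). Ccng2 passed without CD44+ control replicate 1 (0.95, adjusted p = 0.019), and with array weights 8 of the 93 genes passed in CD44+ cells: Btg2, Ccnd2, Ccng2, Cdkn1a, Cdkn2b, Dbf4, Gins3 and Rfc4. That share was near the 7.72% of all genes that passed with array weights. For the difference of effects none passed, and the largest values were those of Prim1, a primase subunit (-0.50), and Rfc4, a clamp loader subunit (0.49), both with an adjusted p of 1.0.

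Between the fractions 2 of the 93 genes passed in each kind of culture, a share near the 2.3% and 2.65% of all genes. Ccnd2, a D-type cyclin that answers growth signals, was lower in c-kit+ cells: it read 7.20, 7.06 and 7.33 there against 9.43, 8.37 and 9.44 in CD44+ control arrays (-1.88, SE 0.30, adjusted p = 0.00415). In estradiol cultures its difference was -2.13 (SE 0.30, adjusted p = 0.00146). Cdkn2b, the inhibitor p15 of Cdk4 and Cdk6, was lower as well, at 6.66, 6.53 and 6.50 against 8.15, 7.38 and 8.50 (-1.45, SE 0.24, adjusted p = 0.00471), and by -1.47 in estradiol cultures (SE 0.24, adjusted p = 0.00335). No array overlapped between the fractions for either gene, and in both the CD44+ array numbered 2 was the lowest of its group. With only the 6 control arrays in the fit the adjusted p of Cdkn2b was 0.0545, and with array weights its difference was -0.89 (adjusted p = 0.0351). The mesenchymal genes, Hoxa9, Ebf1, Mrc1 and the other markers given above differed in the same comparisons, and their part in these differences was not tested. The part of the 3' minus 5' measure, which was higher in c-kit+ arrays in the mean, was not tested either.

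By replicate number, 68 of the 93 genes had their highest mean on arrays numbered 1 (against 35.9% of all genes), with a median difference of 0.19. Of the 93, 20 were highest there in all 4 groups (against 5.23%). These were not counted by role, and they included replication genes such as Orc6, Pold1 and Rfc4, named after their values were seen. The 2 that passed, where 0.742% of all genes did, were Orc6, a subunit of the origin recognition complex (deviations from the group means of 0.19, 0.10 and -0.29 for numbers 1, 2 and 3, adjusted p = 0.0435), and Ccnd2 (0.25, -0.47 and 0.22, adjusted p = 0.0493). Ccnd2 kept its call without any 1 of the 3 c-kit+ control arrays and Orc6 without c-kit+ control replicate 3; without any other array both calls were lost, and after quantile normalization neither passed.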

How the data were processed

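Gene expression was measured on 12 arrays, 3 in each of 4 groups. The authors deposited log2 values made with RMA, per the submitters' processing notes, and its version was not given in the sources used here. Values entered as deposited, with no filter. Of 45101 probe sets, 34945 named 1 gene in the platform annotation, giving 18193 genes.

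Each comparison was fitted with limma 3.58.1 in R 4.3.3, with 1 mean per group over all arrays, empirical Bayes moderation without a trend and Benjamini-Hochberg adjustment over all genes at 0.05. The replicate number was tested by a moderated F in a model of group plus number. Standard errors and 95% intervals are those of the fit. Python 3.11.15, pandas 2.3.3 and matplotlib 3.10.9 made the tables and figures, and the fit was tested on simulated data. No 2 arrays held identical values.

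The members and gene lists were chosen with earlier results of these data known. Full statistics are given for members that passed and for the largest difference in each of 8 roles; of the other pathway genes, those that passed, or else the 2 largest differences, were to be named. Members whose values are given by array outside this rule were chosen after these were seen.

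Equal numbers pair arrays where all 3 correlations of deviations from the group means exceed 0.1. This held for CD44+ control with estradiol arrays (0.303, 0.368, 0.322) and for the fractions in estradiol cultures (0.447, 0.192, 0.312), and not for c-kit+ arrays (0.345, 0.0916, 0.253) or the fractions in control cultures (0.175, 0.122, -0.208). Alternatives took the replicate number as a block, averaged a gene's probe sets, kept only genes of median level or higher, quantile-normalized or median-centred the arrays, used a trend with robust moderation or array weights, fitted the compared arrays alone, set the threshold at 0.1, or left out each array. Chosen after seeing the data were the counts of arrays numbered 1 under other scalings and against bright genes alone. Promoter windows are RefSeq's, on GRCm38.p6.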

Additional observations from a re-analysis of the deposited data

How the results depend on the processing

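The count of 0 of the 41 genes past the threshold held in all 5 comparisons of groups under every alternative and without each array in turn. With the replicate number as a block it was also 0 in all 5, while 62, 101, 0, 693 and 662 of all genes passed for estradiol in c-kit+ and CD44+ cells, their difference and the fractions in control and estradiol cultures, so the block changed no call of the 41 genes. The median differences moved by less than the SD of the median between arrays (0.219), but their signs were not stable: without each array in turn they ran from -0.11 to 0.020 and from -0.057 to 0.14 for estradiol in c-kit+ and CD44+ cells, from -0.19 to 0.041 for the difference of effects, and from -0.091 to 0.088 and from -0.14 to 0.0022 between the fractions in control and estradiol cultures, and array weights gave 0.085 in control cultures. By replicate number, 2 genes passed; the count was 4 at an adjusted p under 0.1, 3 with the mean of probe sets, 1 among genes at or above the median level, 0 after quantile normalization, 8 with array weights (3.18% of all genes), 0 in the c-kit+ or the CD44+ arrays alone and 0 to 6 without each array in turn.

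Some single genes that did not pass changed sign. For estradiol in c-kit+ cells, array weights gave Cdc20 -0.042 and Mki67 0.013, and without each array in turn Ttk ran from -0.41 to 0.0046, Cenpa from -0.27 to 0.042, Cdc20 from -0.12 to 0.44 and Mki67 from -0.17 to 0.076. In CD44+ cells the mean of probe sets gave Tyms 0.0075 and Cenpa -0.061, and E2f1 ran from -0.014 to 0.22. For the difference of effects, Cdc20 was -0.015 with the mean of probe sets, -0.13 with array weights and -0.16 to 0.40 without each array. Between the fractions in control cultures, array weights gave Ccnb2 0.033 and Cdc20 0.13, and Cdc20 ran from -0.43 to 0.13; in estradiol cultures Mki67 ran from -0.029 to 0.13 and Ccnb2 from -0.40 to 0.0054. The cause was not tested. With 3 arrays a group, differences under 1.5-fold are mostly within the intervals, and Tyms is limited by its low signal.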
